A study of Homo sapiens with 24 samples.

Results

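BASP1, FYB, PDLIM4, NNT, FBN2, NKX2-5, EGFLAM, ZNF354C and CCDC152 are 9 genes of human chromosome 5, out of 747 chromosome 5 genes and 16742 genes with a listed mean in at least 1 table. They were chosen by the size of their rise in the study's comparison of HCT116 5/4 with HCT116, with no fold given as a limit, and were found here by name. The values of that comparison are the study's own findings and were not used here, so the label that these genes are switched on in HCT116 5/4 could not be checked, and the rise itself is not described. What was used is the authors' mean per gene, which pools the 3 libraries of an aneuploid line with the 3 of its parental line. Such a mean has no replicate spread and allows no test, and it does not say which line of the pair carried the RNA.

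Sequencing of mRNA covered 24 libraries of 8 cell lines, 3 libraries a line, which form 4 pairs. HCT116 is a human colorectal cancer line and RPE1 a line from retinal pigment epithelium that is immortalized with hTERT. HCT116 5/4, with 4 copies of chromosome 5, was paired with HCT116. HCT116 5/4 came from another source than the HCT116* lines. For HCT116 the paper names both the laboratory that gave HCT116 5/4 and the cell collection from which HCT116* derives. HCT116* 8/3 c7, with 3 copies of chromosome 8, was paired with HCT116*, where the asterisk marks lines that express H2B-GFP, a fluorescent histone. RPE1 5/3 12/3, with 3 copies of chromosomes 5 and 12, was paired with RPE1, and RPE1* 21/3, with 3 copies of chromosome 21, with RPE1*. How HCT116 5/4 gained chromosome 5 is not stated in the sources used here, the other lines were made by microcell-mediated transfer, chromosome 12 was gained spontaneously, and HCT116* 8/3 c7 is a single clone. No drug or other treatment separated the groups. In what follows each pair is named after its parental line. In HCT116 and RPE1 a comparison of the pair with its asterisk pair therefore differs in the chromosome gained and in H2B-GFP. For HCT116 it also differs in the source of HCT116 5/4 and possibly of HCT116. These cannot be told apart.

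Each table was normalized on its own, and the listed means summed to between 1.89e+07 and 2.30e+07 normalised counts per table over 14292 to 15610 genes. To set tables side by side, each mean was divided by the total of its table and given as normalised counts per 1000000 (CPM). The smallest listed mean was 3.36 in the HCT116 pair, 1.98 in the HCT116* pair and 3.25 in both RPE1 pairs. A gene without a listed mean had none in the table analysed here, which is no proof of a low level. RN45S, the precursor of ribosomal RNA, had no listed mean in the HCT116* pair and 200512 or more in the other 3. The marker genes followed the tissue of origin in part. EPCAM, an epithelial adhesion protein, had means of 4192 and 5683 in the HCT116 and HCT116* pairs and 4.77 in the RPE1 pair, while VIL1 and CDX1 had no listed mean in any table. OTX2, a regulator of pigment epithelium, had means of 715 and 419 in the RPE1 and RPE1* pairs and none in the HCT116 tables, whereas the pigment genes TYR and TYRP1 had none in any table. RPE65, a visual cycle enzyme of pigment epithelium, went the other way, with 287 and 194 in the HCT116 and HCT116* pairs and 10.4 and 4.58 in the RPE1 and RPE1* pairs, as did PMEL, with 97.1 and 137 against 17.8 and 14.8.

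The 9 genes have no common pathway. They act at the cell cortex and cytoskeleton (BASP1, PDLIM4, FYB), in the extracellular matrix (FBN2, EGFLAM), in mitochondria (NNT) or in transcription (NKX2-5, ZNF354C), and CCDC152 encodes a little studied coiled-coil protein. Several are best known from other tissues. FYB is an adaptor of T cell receptor signalling, NKX2-5 a homeobox factor of the developing heart, and EGFLAM, also called pikachurin, a matrix protein of the photoreceptor synapse that binds dystroglycan. Gain of a chromosome is known to raise the mRNA of many of its genes roughly with copy number.

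The genes lie on both arms of chromosome 5 (GRCh37, canonical transcripts of GENCODE). BASP1 lies at chr5:17217740-17276943 on the plus strand, with 2 exons. EGFLAM (chr5:38258661-38465582, plus, 22 exons), FYB (chr5:39105354-39219665, minus, 19 exons), CCDC152 (chr5:42756920-42802541, plus, 9 exons) and NNT (chr5:43603282-43707498, plus, 22 exons) follow on the same arm. FBN2 (chr5:127593601-127873938, minus, 65 exons), PDLIM4 (chr5:131593389-131609147, plus, 7 exons), NKX2-5 (chr5:172659112-172662209, minus, 2 exons) and ZNF354C (chr5:178487374-178510978, plus, 5 exons) lie on the other arm. A gene on the opposite strand overlaps 3 of them by whole gene span, P4HA2 for PDLIM4, SLC27A6 for FBN2 and SEPP1 for CCDC152. No strand option is named for the counting, so strand could not assign reads from any exon bases that partners share. Whether their exons overlap was not examined.

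The start regions of the 9 genes are unlike in base composition. RefSeq gave 11 start regions for 8 of the 9 genes, with no entry for NKX2-5, and the 250 bases before each start were searched for CG, the dinucleotide at which human DNA is methylated, which reads the same on both strands. Over 35116 RefSeq start regions the median was 11 CG, and 93.9% held at least 1. The 6 entries above this median were PDLIM4 with 33 CG, ZNF354C with 26, FBN2 with 25, the second NNT entry with 24, BASP1 with 21 and the first EGFLAM entry with 19. The first NNT entry held 7, the second EGFLAM entry 7, CCDC152 8, and the FYB entries 0 and 1. At least as many CG as in PDLIM4 were found in 8.15% of all start regions, and at least as many as in BASP1 in 30.2%. The sequences below, from RefSeq on GRCh38.p14 and placed on GRCh37 by exact match, show the range from the CG-dense to the CG-poor among genes with no listed mean in the HCT116* pair, 5′ to 3′ on the gene's strand with each CG in capitals. They are BASP1 at chr5:17216682-17216931 (plus), PDLIM4 at chr5:131593139-131593388 (plus), the second NNT entry at chr5:43603032-43603281 (plus), CCDC152 at chr5:42756670-42756919 (plus) and the second FYB entry at chr5:39219666-39219915 (minus).
PDLIM4: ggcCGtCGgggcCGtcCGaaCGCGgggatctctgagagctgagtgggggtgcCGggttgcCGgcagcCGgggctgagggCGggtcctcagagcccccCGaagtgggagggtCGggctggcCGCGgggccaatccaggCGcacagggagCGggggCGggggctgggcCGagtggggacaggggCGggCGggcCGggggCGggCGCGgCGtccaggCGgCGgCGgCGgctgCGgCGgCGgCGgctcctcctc
NNT: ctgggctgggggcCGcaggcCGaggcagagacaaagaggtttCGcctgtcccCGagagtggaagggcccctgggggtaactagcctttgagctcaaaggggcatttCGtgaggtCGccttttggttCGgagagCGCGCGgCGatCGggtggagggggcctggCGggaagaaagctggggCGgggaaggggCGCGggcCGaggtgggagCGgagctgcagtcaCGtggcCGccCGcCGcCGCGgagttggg
BASP1: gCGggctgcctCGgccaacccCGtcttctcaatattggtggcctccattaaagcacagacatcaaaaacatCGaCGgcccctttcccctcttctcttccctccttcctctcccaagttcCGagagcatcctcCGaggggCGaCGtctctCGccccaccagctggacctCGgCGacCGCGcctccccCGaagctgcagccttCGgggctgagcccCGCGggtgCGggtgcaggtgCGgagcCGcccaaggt
CCDC152: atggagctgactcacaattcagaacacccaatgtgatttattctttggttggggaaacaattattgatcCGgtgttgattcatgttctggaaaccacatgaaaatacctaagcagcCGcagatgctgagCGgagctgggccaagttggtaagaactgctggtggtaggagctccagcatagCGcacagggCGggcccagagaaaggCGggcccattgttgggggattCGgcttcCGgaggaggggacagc
FYB: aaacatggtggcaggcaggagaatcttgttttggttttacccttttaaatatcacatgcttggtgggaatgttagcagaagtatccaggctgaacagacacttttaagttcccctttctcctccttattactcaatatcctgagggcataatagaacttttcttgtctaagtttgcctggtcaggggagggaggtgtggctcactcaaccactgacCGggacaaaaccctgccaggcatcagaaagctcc
Of the sequences shown, those of PDLIM4, NNT (second entry) and BASP1 were above the median of 11 CG. That of CCDC152 was under it with 8, and that of FYB had a single one. The first NNT entry, not shown, held 7, fewer than CCDC152. A count of CG is a description of the sequence and says nothing of its methylation in these cells.

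All 9 genes had a listed mean in the HCT116 pair, and 8 of the 9 had none in the HCT116* pair. The pooled means in the HCT116 pair lay between 119 and 2665 normalised counts before division by length, with a median of 471 beside 474 over all genes of that table. These libraries include the ones whose rise chose the genes, so their levels there are a description. The table of the HCT116* pair, which shares no library with it, listed only FBN2, with a mean of 2.33. In RNA from whole cultures, fewer cells that express a gene and less RNA per cell cannot be told apart.

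**Figure D1:**
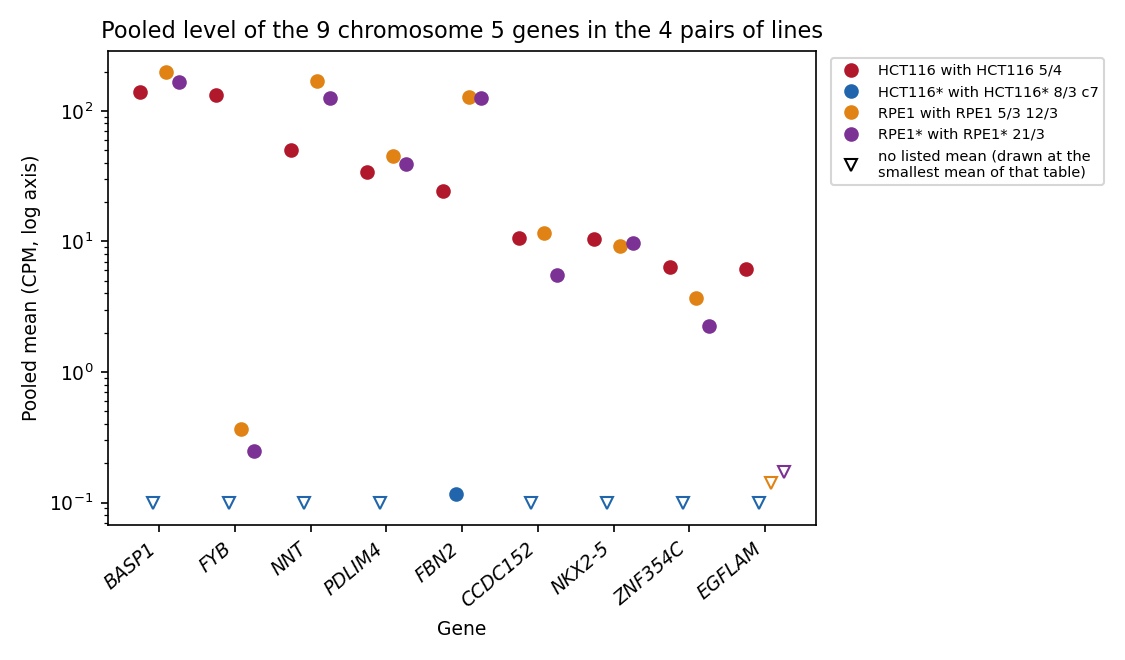
The pooled mean in CPM of each of the 9 genes (log axis) in the 4 pairs of lines, with filled circles for listed means and open triangles at the smallest mean of a table for genes with no listed mean. BASP1, NNT, PDLIM4, FBN2, CCDC152, NKX2-5 and ZNF354C have levels of at least 2.25 CPM in the HCT116, RPE1 and RPE1* pairs, FYB and EGFLAM are that high in the HCT116 pair alone, and the HCT116* pair has 1 filled circle, for FBN2 at 0.116 CPM.

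Among the genes of the cytoskeleton and cell cortex, BASP1, a membrane-bound protein of the actin-rich cell cortex and of growth cones, had a pooled mean of 2665, or 138 CPM, in the HCT116 pair. Its means were 4539 (197 CPM) in the RPE1 pair and 3146 (167 CPM) in the RPE1* pair, with none listed in the HCT116* pair. BASP1 was thus a well expressed gene in 3 of the 4 pairs, the HCT116 pair included. PDLIM4, a PDZ and LIM domain protein of actin stress fibres, had means of 655 (34.0 CPM) in the HCT116 pair, 1041 (45.2 CPM) in the RPE1 pair and 735 (38.9 CPM) in the RPE1* pair. It too had no listed mean in the HCT116* pair, while P4HA2, the gene that overlaps it, had means of 1468 and 884 in the HCT116 and HCT116* pairs.

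FYB, the T cell adaptor, had a far lower level in the RPE1 pairs than in the HCT116 pair. Its mean was 2550 in the HCT116 pair (132 CPM), and 8.36 (0.363 CPM) and 4.69 (0.248 CPM) in the RPE1 and RPE1* pairs. With 3 libraries in each line of a pair and no value under 0, a line can have at most 2 times the pooled mean and at least 1 line reaches it. At least 1 of HCT116 and HCT116 5/4 therefore had 132 CPM or more and neither RPE1 line above 0.726, a gap of at least 182-fold, and against the RPE1* lines of at least 266-fold. RPE1 5/3 12/3, which also gained chromosome 5, is within that bound. Of 8 markers of blood cells, in which FYB is best known, 2 were listed in the HCT116 pair, and CD3E, CD3D, LCP2 and SPI1 had no listed mean in any. The markers summed to 1.41 CPM in the HCT116 pair against 0.549 to 0.801 in the other tables. CD14, itself a chromosome 5 gene, held 1.16 CPM of that sum and had no listed mean in the HCT116* pair. ITGAM was lower in the HCT116 pair, with 0.242 CPM against 0.425 in the HCT116* pair. LCP2 encodes a binding partner of FYB in T cells.

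In the extracellular matrix, FBN2, a fibrillin of elastic microfibrils, was the only one of the 9 with a listed mean in each table. The means were 471 (24.4 CPM) in the HCT116 pair, 2.33 (0.116 CPM) in the HCT116* pair, 2958 (129 CPM) in the RPE1 pair and 2376 (126 CPM) in the RPE1* pair. By the same arithmetic at least 1 line of the HCT116 pair stood at least 105-fold above either HCT116* line. Both RPE1 pairs were higher still, since neither HCT116 line could exceed 48.9 CPM and at least 1 line of the RPE1 pair had at least 129 CPM, 2.63-fold more. SLC27A6, on the other strand, had means of 446 and 356 in the HCT116 and HCT116* pairs and none listed in the RPE1 pair, the reverse of FBN2 between the 2 parental lines. EGFLAM had a mean of 119 (6.20 CPM) in the HCT116 pair and none listed in the other 3. It is the only one of the 9 with no listed mean in either RPE1 pair, although dystroglycan (DAG1), which it binds, had means between 6783 and 7349 in all 4.

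NNT, the mitochondrial transhydrogenase that makes NADPH from NADH, had means of 966 (50.2 CPM) in the HCT116 pair, 3909 (169.9 CPM) in the RPE1 pair and 2348 (124 CPM) in the RPE1* pair. It had none listed in the HCT116* pair. At most 100.3 CPM is possible in either HCT116 line, so at least 1 line of the RPE1 pair was 1.69-fold higher or more. Of 6 other mitochondrial sources of NADPH, 5 were listed in both the HCT116 and the HCT116* pair. The level of each of the 5 differed by less than 4-fold between these pairs. Among all genes only 0.867% were higher and 0.190% lower past 4-fold. IDH2 had means of 1020.4 and 916 in the HCT116 and HCT116* pairs, GLUD1 3408 and 3395, and MTHFD2 5906 and 5631, while ME3 had none listed in either and 1949 in the RPE1 pair.

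Of the transcription factors, NKX2-5 had nearly the same pooled level in 3 pairs, with means of 201 (10.4 CPM) in the HCT116 pair, 212 (9.22 CPM) in the RPE1 pair and 184 (9.72 CPM) in the RPE1* pair, and none listed in the HCT116* pair. Of 7 heart muscle markers the HCT116 pair listed 3, with a sum of 1.83 CPM there, 2.25 in the HCT116* pair and 0.163 and 0.204 in the RPE1 and RPE1* pairs, and MYH6, MYH7 and TBX5 had no listed mean in any table. ZNF354C, a KRAB zinc finger protein, had means of 122 (6.34 CPM), 84.8 (3.68 CPM) and 42.5 (2.25 CPM) in the HCT116, RPE1 and RPE1* pairs. CCDC152 had means of 203 (10.5 CPM), 268 (11.6 CPM) and 104 (5.49 CPM) in the same order. SEPP1, the selenoprotein P gene that overlaps CCDC152, had nearly equal means of 109.5 and 112 in the HCT116 and HCT116* pairs and 5.63 in the RPE1 pair, where CCDC152 was highest.

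Divided by transcript length, the order of the pooled levels in the HCT116 pair was BASP1 (76.5 CPM per kilobase), FYB (27.4), PDLIM4 (15.1), NNT (7.81), NKX2-5 (6.70), CCDC152 (3.02), FBN2 (2.24), EGFLAM (1.31) and ZNF354C (1.08). In the RPE1 pair BASP1 again led with 109 CPM per kilobase, followed by NNT with 26.5, PDLIM4 with 20.0, FBN2 with 11.8, NKX2-5 with 5.92 and CCDC152 with 3.33, and FYB was last of 8 with 0.0752. Without single libraries, which neighbours in these orders differ beyond their spread could not be said.

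The HCT116 and HCT116* pairs were then compared gene by gene, as the log2 ratio of the levels in CPM after 0.5 CPM was added to each, with the smallest listed mean of a table in place of a missing one and a mean of at least 10 in the higher table. FBN2, which has both means, had a log2 ratio of 5.34. With the stand-in, the log2 ratio was 7.86 for BASP1, 7.79 for FYB, 6.40 for NNT, 5.85 for PDLIM4, 4.20 for CCDC152, 4.19 for NKX2-5, 3.51 for ZNF354C and 3.48 for EGFLAM. All 9 were past 4-fold, against 0.867% of 14186 genes and 6.89% of 624 chromosome 5 genes. The members' median was 5.34, against 0.48 over chromosome 5 and -0.01 over all genes. Since the HCT116 pair holds the libraries that chose these genes, nothing is read from these shares and medians, nor from the ranks that follow. For all of them but FBN2 the lower level is the same stand-in, so the ratio follows the level in the HCT116 pair alone. On chromosome 5, BASP1, FYB, NNT and PDLIM4 took ranks 1 to 4, FBN2 7, CCDC152 and NKX2-5 10 and 11, and ZNF354C and EGFLAM 15 and 16. When the genes without a mean in 1 table were left out, FBN2 alone remained to be compared.

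**Figure D2:**
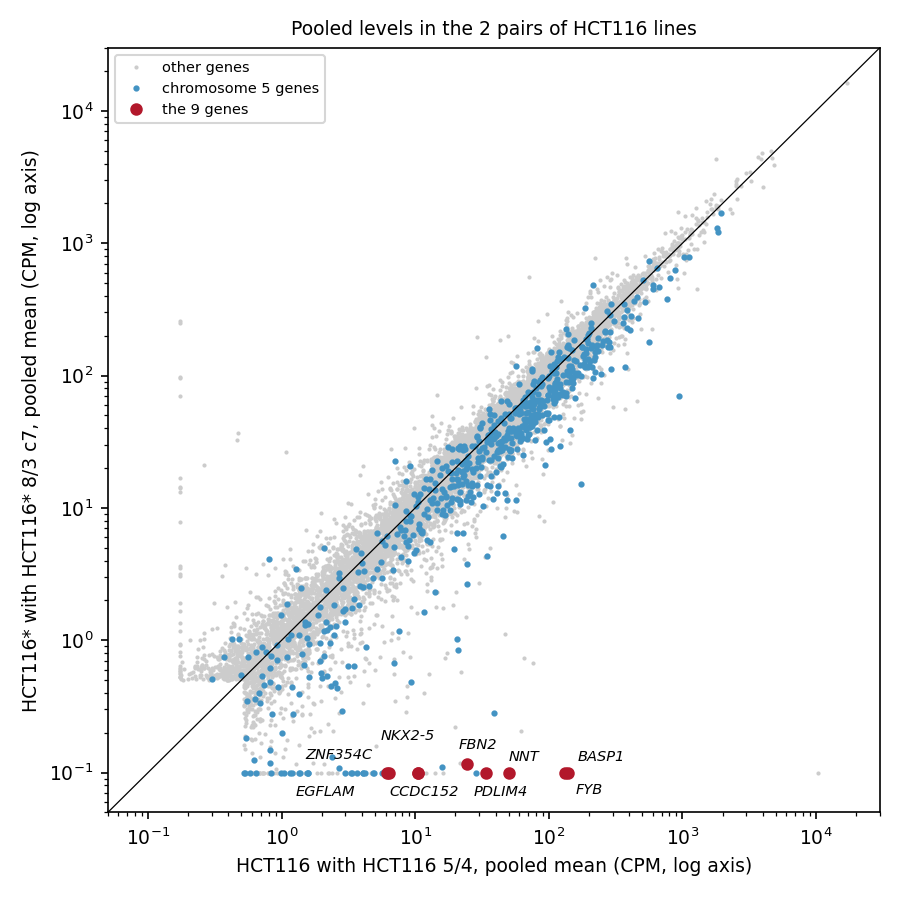
Pooled mean in CPM in the HCT116 pair (x, log axis) against the HCT116* pair (y, log axis), for genes whose mean reached 10 in either, with genes of no listed mean drawn at the smallest mean of that table and the line of equal levels in black. The 9 genes lie along the bottom edge, from 6.20 (EGFLAM) to 138 CPM (BASP1), while most chromosome 5 genes lie just under the line.

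Genes next to the 9 varied. Among the nearest chromosome 5 genes on each side that reached a mean of 10 in either HCT116 table, 18 in all, the log2 ratio ran from -0.12 (MYO10) to 2.93 (ZNF879), with a median of 0.83, and 3 were past 4-fold, beside the 6.89% of chromosome 5 genes given above. These 3 were ZNF879, a zinc finger gene 25.3 kb from ZNF354C with a mean of 78.4 in the HCT116 pair, GDNF, a neurotrophic factor gene 419 kb from EGFLAM with 64.5, and ACSL6, an acyl-CoA synthetase gene 245 kb from PDLIM4 with 224. ZNF879 and GDNF had no listed mean in the HCT116* pair, where ACSL6 had 33.0. Neighbours were first taken as genes listed in all 4 tables, which gave 0 of 18 past 4-fold, but that demand keeps out any gene without a mean in the HCT116* pair. LIFR, a cytokine receptor gene 9.19 kb from EGFLAM, had means of 863 and 546 in the HCT116 and HCT116* pairs, a log2 ratio of 0.71. RICTOR, a subunit of mTORC2 that lies 30.9 kb from FYB, had 1569.8 and 778 (1.06), and PAIP1, 45.4 kb from NNT, had 3813 and 2324 (0.77). SLC22A4, a transporter gene 20.9 kb from PDLIM4, had 41.9 and 10.7 (1.37).

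Of 40 genes related to the 9, 32 could be compared between the HCT116 pairs, and 0 were past 4-fold, beside 0.867% of all genes that were higher and 0.190% that were lower past 4-fold, so that a count of 0 of 32 is near the background. Their log2 ratios ran from -0.60 (PDLIM5) to 1.04 (FBN1), with a median of 0.06. MARCKS, a relative of BASP1, had means of 1534 and 1442 in the HCT116 and HCT116* pairs, and PDLIM7, a relative of PDLIM4 that is also on chromosome 5, had 2089 and 1646. ZNF354A and ZNF354B, which lie on chromosome 5 like ZNF354C, had 460.8 and 459.7, and 207 and 140.1. FBN1, the fibrillin mutated in Marfan syndrome, was high in RPE1, with means of 46944 and 55888 in the RPE1 and RPE1* pairs against 80.8 and 35.7 in the HCT116 and HCT116* pairs. Of the 6 NK2 genes related to NKX2-5, NKX2-1 and NKX2-8 were listed in the HCT116 tables, with 19.2 and 67.4 in the HCT116 pair, and 0 in the RPE1 tables.

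Among markers of cell type, the summed level of the mesenchymal list was higher in the HCT116 pair than in the HCT116* pair, though not for each gene. Its 6 genes summed to 139.5 CPM in the HCT116 pair, with 5 listed, and 85.8 in the HCT116* pair, with 4 listed, against 24169 and 26244 in the RPE1 and RPE1* pairs. FN1 had means of 1210 and 677, VIM 481 and 106 and ZEB1 302 and 90.3 in the HCT116 and HCT116* pairs. COL1A1 went the other way, with 689.9 and 848. CDH2 had 5.015 in the HCT116 pair and none listed in the HCT116* pair, and COL1A2 had none in either. The colon list summed to 6019.7 and 5393 CPM, with KRT8 and KRT18 higher in the HCT116 pair (log2 ratios 0.14 and 0.50) and 5 of 7 compared genes lower there, among them CDH1 (-0.53) and EPCAM (-0.38), and the list of pigment epithelium to 23.8 and 19.7. The part of these differences in the levels of the 9 genes was not tested.

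**Figure D3:**
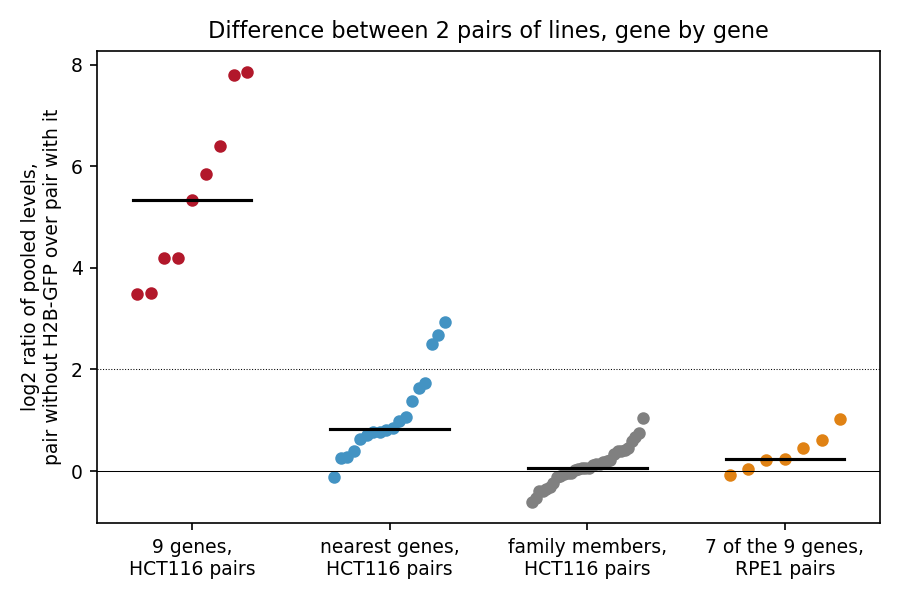
The log2 ratio of pooled levels of each gene, as points in rising order with the median as a bar, for the 9 genes, 18 neighbours and 32 family genes between the HCT116 and HCT116* pairs, and for 7 of the 9 genes between the RPE1 and RPE1* pairs. The dotted line marks 4-fold. The 9 genes lie between 3.48 and 7.86, 3 neighbours are above the dotted line, and the family genes and the RPE1 comparison are under it.

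RPE1 5/3 12/3 also gained chromosome 5, so the RPE1 and RPE1* pairs were compared in the same way. Of the 9 genes 7 had a mean of at least 10, and 0 of these were past 4-fold, beside 0.305% of all 13456 genes and 1.91% of 627 chromosome 5 genes that were higher in the RPE1 pair. The log2 ratio was 1.02 for CCDC152, 0.61 for ZNF354C, 0.45 for NNT, 0.24 for BASP1, 0.21 for PDLIM4, 0.03 for FBN2 and -0.07 for NKX2-5. The median of 0.24 stood beside 0.28 for all of chromosome 5. The sign for NKX2-5 depended on the scale, with 0.20 for the means as deposited. These 7 genes thus had listed means of at least 42.5 in the RPE1* pair, whose aneuploid line gained chromosome 21 and not 5. Between the RPE1 pairs only their median lay near that of chromosome 5. Single genes varied, from NKX2-5, above 38.9% of all genes, to ZNF354C and CCDC152, above 96.4% and 98.6%. FYB and EGFLAM were not compared.

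Across parental lines, the HCT116 pair was set against the RPE1 pair. FYB and EGFLAM were past 4-fold higher in the HCT116 pair (log2 ratio 7.27, and 3.38 with the stand-in for the RPE1 pair), beside 10.7% of 14892 genes. FBN2 was past 4-fold lower (-2.37), beside 6.67%. The remaining 6 were within 4-fold, NNT with -1.75, BASP1 with -0.51, PDLIM4 with -0.41, CCDC152 with -0.14, NKX2-5 with 0.17 and ZNF354C with 0.71. Between the HCT116* and RPE1* pairs FBN2 alone has both means, and at least 1 RPE1* line stood at least 541-fold above either HCT116* line.

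The absence of a listed mean was itself counted. Of 13887 genes whose mean reached 10 in the HCT116 pair, 0.540% had none in the HCT116* pair, and of 619 on chromosome 5 the share was 5.49%, or 34 genes, of which 8 are among the 9. On all other chromosomes, unplaced genes included, it was 41 of 13268. Since the HCT116 pair holds the libraries that chose the 9, nothing is read from their number here or from the chromosome 5 share that includes them. In the other direction 32 of 13869 genes were missing from the HCT116 pair, 0 of them among 564 on chromosome 5. Between the RPE1 pairs 12 of 620 chromosome 5 genes whose mean reached 10 in the RPE1 pair had none in the RPE1* pair, and none of the 9 was among them. The other 26 chromosome 5 genes missing from the HCT116* pair had a median mean of 30.2 in the HCT116 pair and 550.5 at most, and 14 of the 26 were listed in the RPE1 pair. Of 11160 genes that reached a mean of 100 in the HCT116 pair, 16 (0.143%) had none in the HCT116* pair. Of 508 such genes on chromosome 5 it was 11 (2.17%), 8 of them among the 9 and the others PCDHGC3, ADAMTS12 and SNCB. All of the 9 reached that mean in the pair whose libraries chose them, so nothing is read from the 8.

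**Figure D4:**
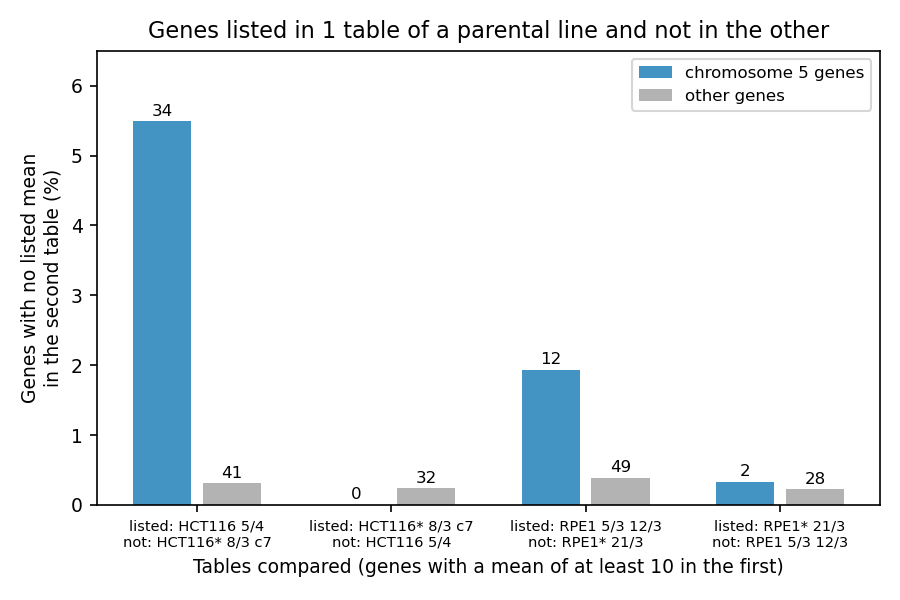
Percent of genes whose mean reached 10 in a first table that had no listed mean in a second, for chromosome 5 (blue) and other genes (grey), with the number of genes above each bar. Chromosome 5 stands at 5.49% from the HCT116 to the HCT116* pair and at 0 the other way. The 34 genes behind the 5.49% include 8 of the 9, which were chosen with libraries of the HCT116 pair.

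The 9 were not the only chromosome 5 genes with this pattern. Of 499 other chromosome 5 genes whose mean reached 100 in the HCT116 pair 22 were past 4-fold, with a median log2 ratio of 0.43 over the 499. That filter looks at the HCT116 pair alone, and the share of all genes under it was not counted. Under the earlier filter, a mean of at least 10 in the higher table, it was 34 of 615 other chromosome 5 genes, beside 0.867% of all genes. FLT4, a receptor of lymphatic vessel growth factors, had means of 750.4 and 5.66 in the HCT116 and HCT116* pairs, and no listed mean in the RPE1 tables, in which it resembled EGFLAM. PCDHGC3, a protocadherin, had 550.5 in the HCT116 pair, none listed in the HCT116* pair, and 3322 and 1553 in the RPE1 and RPE1* pairs. ADAMTS12, a matrix protease, had 209, none, 3194 and 4307 in the same order. Both were thus higher in the RPE1 pairs than in the HCT116 pair, as NNT and FBN2 were and, by a smaller margin, BASP1 and PDLIM4. PLEKHG4B had 400.1 and 17.0 in the HCT116 pairs. PCDHGC3 shares exons with the other genes of its cluster, so its reads may be split or shared among them.

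By likeness of level, as the distance between log2 levels over the 4 tables, the nearest gene to EGFLAM was SNCB of chromosome 5 (distance 0.13), a synuclein, with 5.62 CPM in the HCT116 pair and no other listed mean. For NNT and BASP1 it was PCDHGC3 (1.02 and 2.51), and for FBN2 ODZ3, a teneurin, and PCDHGC3 (0.67 each). The genes nearest to the others lie on other chromosomes, namely DCLK1 for FYB (1.33), TM4SF18 for PDLIM4 (1.47), SERTAD4 for NKX2-5 (0.77), SDK1 for ZNF354C (0.85) and TIMP3 for CCDC152 (0.88). Except for FBN2, each gene whose nearest genes were sought had no listed mean in the HCT116* pair, so a stand-in entered its distances there. For EGFLAM and SNCB only the HCT116 pair had listed means, so their distance is the difference in that pair alone. With at most 4 listed means a gene and tables normalized apart, these distances are a description only.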

How the data were processed

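Messenger RNA of 24 libraries was sequenced on a HiSeq2500 from TruSeq preparations. The authors trimmed reads with cutadapt, mapped them to hg19 with TopHat2 2.0.10 at 1 location per read, counted exons per RefSeq gene with featureCounts 1.4.3 and ran DESeq2 on each line against its parent, whose version is not given in the sources used here. The deposited tables hold, per gene, a signal (the authors' mean of normalised counts over 6 libraries) and the fold changes, errors, statistics and p-values of the authors' comparisons. The latter are the study's findings and were not used. Single-library values were not used here, so depth per library, replicate error and tests are not given, and whether libraries came from separate cultures is not stated.

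Means were scaled to 1000000 per table (CPM). Ratios used a pseudocount of 0.5 CPM, a mean of at least 10 in the higher table and a limit of 4-fold. The ratio was tested on simulated data in which no gene lacked a mean, so the stand-in for missing means was not covered. Scale, pseudocount, filter, limit and the treatment of missing means were varied. Genes were placed with GENCODE on GRCh37, by older symbols from RefSeq where needed (FYB as FYB1). Named genes were the 9, the nearest gene on each side listed in all 4 tables, fixed family and marker lists, the 5 other chromosome 5 genes with the largest ratio at a mean of at least 100, and the 2 genes nearest in level; SNCB, RN45S, the overlapping genes and the neighbours ZNF879, GDNF and ACSL6 were added after their values were seen. A gene that these rules name is not reported here. The 9 genes and the lists were chosen with earlier results of these data known. Scripts ran in Python 3.11.15 with pandas 2.3.3, numpy 2.4.6 and matplotlib 3.10.9.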

Additional observations from a re-analysis of the deposited data

How the results depend on the processing

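The count of the 9 genes past 4-fold between the HCT116 and HCT116* pairs was 9 under each alternative of scale, filter and limit, with missing means set to 0 and with a pseudocount of 0.1 CPM. Since the HCT116 pair holds the libraries that chose these genes, and 8 of the 9 lack a mean in the HCT116* pair, nothing is read from this stability. It was 7 with a pseudocount of 2 CPM, where ZNF354C (log2 ratio 1.99) and EGFLAM (1.97) fell short. With genes without a mean in 1 table left out, an alternative chosen after seeing the data as were the missing means at 0 and totals without RN45S, it was 1, since FBN2 alone has both means. Between the RPE1 and RPE1* pairs the count was 0 throughout, except 1 with a limit of 2-fold (CCDC152). The count over all genes moved more. In the HCT116 pairs it went from 123 (0.867%) to 195 (1.37%) and 64 (0.451%) with pseudocounts of 0.1 and 2 CPM. Limits of 2-fold and 8-fold gave 481 (3.39%) and 49 (0.345%) there. In the RPE1 pairs it went from 41 (0.305%) to 81 (0.602%), 22 (0.163%), 191 (1.42%) and 17 (0.126%) under the same settings. Leaving out missing means gave 25 (0.187%) in the RPE1 pairs. Of the nearest genes 0 were past 4-fold when a mean in all 4 tables was asked for and 3 when it was not, an alternative added after seeing the data. The direction of each gene's ratio was kept in each alternative except for NKX2-5 in the RPE1 pairs. No paired analysis was possible because single-library values were not used here, and leaving out a replicate was not run for the same reason. The levels per kilobase stand in the text.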
